A study of Mus musculus with 6 samples.

Results

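The genes described here import cystine and make, recycle or break down glutathione. They are Slc7a11, Slc3a2, Gclc, Gclm, Gss, Gsr, Chac1, Ggct, Cth and Cbs, chosen by name for their place in the pathway and matched by gene symbol, and all 10 of them were among the 16426 genes of the deposited table. Of the 10, 9 passed the filter on low values (1 FPKM or more in 3 or more of 6 libraries) and entered the test of 10804 genes. Cbs stayed below 1 FPKM in every library. FPKM scales fragments by transcript length and library size, so levels of different genes can be set side by side.

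The cells were 4T1-LM3 by their labels, a murine mammary carcinoma line. In 3 samples they had received conditioned medium (CM) of matrix fibroblasts (MFs) that the labels call Tdo2high, and in 3 samples a control CM whose cells of origin the labels do not name. Tdo2 encodes tryptophan dioxygenase, which starts the breakdown of tryptophan to kynurenine. The series asked how the fibroblast medium affected disseminated tumour cells, and its title names resistance to ferroptosis; no medium of Tdo2-low fibroblasts and no kynurenine treatment was analysed here. Whether replicates were separate cultures is not stated in the labels; the p-values then cover only the spread among these samples, and that spread may be technical.

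Glutathione is a tripeptide of glutamate, cysteine and glycine and the main small thiol of animal cells. Cystine enters through system xc-, an exchanger of cystine for glutamate made of the light chain Slc7a11 and the heavy chain Slc3a2, and is reduced to cysteine inside the cell. Glutamate cysteine ligase, with its catalytic subunit Gclc and its modifier subunit Gclm, carries out the limiting step, and glutathione synthetase (Gss) adds glycine. Glutathione reductase (Gsr) regenerates the reduced form with NADPH. The peroxidase Gpx4 spends reduced glutathione on lipid peroxides, and loss of cystine uptake is a classical trigger of ferroptosis. Several of these genes answer to the transcription factors NRF2, through antioxidant response elements, and ATF4, through elements that combine a C/EBP site with an ATF site.

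Promoter windows of 300 bases, from 250 bases before the RefSeq start site to 50 after it (build GRCm38.p6), were held for 7 of the 10 genes. Gclc, Gsr and Cth had no entry. For Slc7a11, Slc3a2, Gclm, Ggct and Cbs the start site used lies inside the annotated span of the gene, so each of these windows shows 1 start and not the outermost one. The windows shown belong to both chains of the cystine carrier, to the ligase subunit Gclm and to Chac1, a glutathione-degrading enzyme which lay lower with Tdo2high MFs CM without passing the test. Capitals mark matches on either strand to TGACNNNGC, the core of the antioxidant response element, or to TGATGNAA, the composite element bound by ATF4 with C/EBP partners; the 2 motifs were chosen after the windows had been seen.
Slc7a11: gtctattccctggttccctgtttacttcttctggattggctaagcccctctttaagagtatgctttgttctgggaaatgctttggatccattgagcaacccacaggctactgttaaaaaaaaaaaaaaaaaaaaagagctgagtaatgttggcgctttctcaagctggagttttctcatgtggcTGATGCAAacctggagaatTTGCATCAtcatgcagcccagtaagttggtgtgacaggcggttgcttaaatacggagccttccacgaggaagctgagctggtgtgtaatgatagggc
Slc3a2: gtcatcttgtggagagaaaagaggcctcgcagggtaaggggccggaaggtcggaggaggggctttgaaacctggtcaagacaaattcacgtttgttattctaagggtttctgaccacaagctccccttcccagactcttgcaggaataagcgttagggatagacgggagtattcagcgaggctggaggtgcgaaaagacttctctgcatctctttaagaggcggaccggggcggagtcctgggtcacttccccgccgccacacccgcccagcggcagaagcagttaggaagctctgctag
Gclm: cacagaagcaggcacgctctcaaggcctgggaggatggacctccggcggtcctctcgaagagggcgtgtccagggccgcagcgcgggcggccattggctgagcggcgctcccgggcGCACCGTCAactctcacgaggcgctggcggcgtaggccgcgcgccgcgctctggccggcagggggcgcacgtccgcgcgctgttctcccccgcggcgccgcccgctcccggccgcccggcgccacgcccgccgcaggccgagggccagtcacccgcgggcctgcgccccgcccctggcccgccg
Chac1: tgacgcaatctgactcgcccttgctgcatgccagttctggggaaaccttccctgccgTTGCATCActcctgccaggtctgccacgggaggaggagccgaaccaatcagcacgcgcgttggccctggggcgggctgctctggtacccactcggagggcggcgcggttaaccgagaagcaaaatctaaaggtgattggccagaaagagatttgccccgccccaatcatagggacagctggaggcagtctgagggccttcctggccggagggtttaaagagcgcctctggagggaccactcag
The windows lie at chr3:50443564-50443863 on the minus strand for Slc7a11, chr19:8713848-8714147 on the minus strand for Slc3a2, chr3:122245307-122245606 on the plus strand for Gclm and chr2:119350992-119351291 on the plus strand for Chac1. Slc7a11 held 2 matches to TGATGNAA, with first bases 66 and 47 bases before the start site and in opposite orientations. Chac1 held 1 match to it, 193 bases before the start site. Gclm held 1 match to TGACNNNGC, 134 bases before the start site, and Slc3a2 held neither. Among the windows not printed, Ggct held 2 matches to TGACNNNGC, and Gss and Cbs held neither motif. Of all 32851 promoter windows in the table, 12.4% held TGACNNNGC and 3.97% held TGATGNAA. No match overlapped another in the printed windows. A match describes the letters only.

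After Tdo2high MFs CM, 4 of the 9 tested genes rose, none fell and 5 did not pass the test. The genes that rose were Gclc, Slc7a11, Gclm and Gsr. They cover cystine uptake, both subunits of the limiting ligase and glutathione recycling. Across all 10804 tested genes by this rule (limma, adjusted p under 0.05) 3.35% rose and 4.06% fell, 7.41% together. At an unadjusted p under 0.05 from the same limma fit 3 of the 9, Chac1, Ggct and Cth, were lower; by that looser rule 14.1% of all tested genes were lower and 9.68% were higher. For these 9 the median log2 fold change was -0.02, against -0.01 over all tested genes, so the rises were not shared by the whole set. The groups did not overlap in 6 of the 9 genes, 4 higher and 2 lower, where 29.2% of all tested genes showed no overlap, 11.6% higher and 17.5% lower. In bulk RNA a change in the share of cells that express a gene and a change in RNA per cell cannot be told apart.

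**Figure D1:**
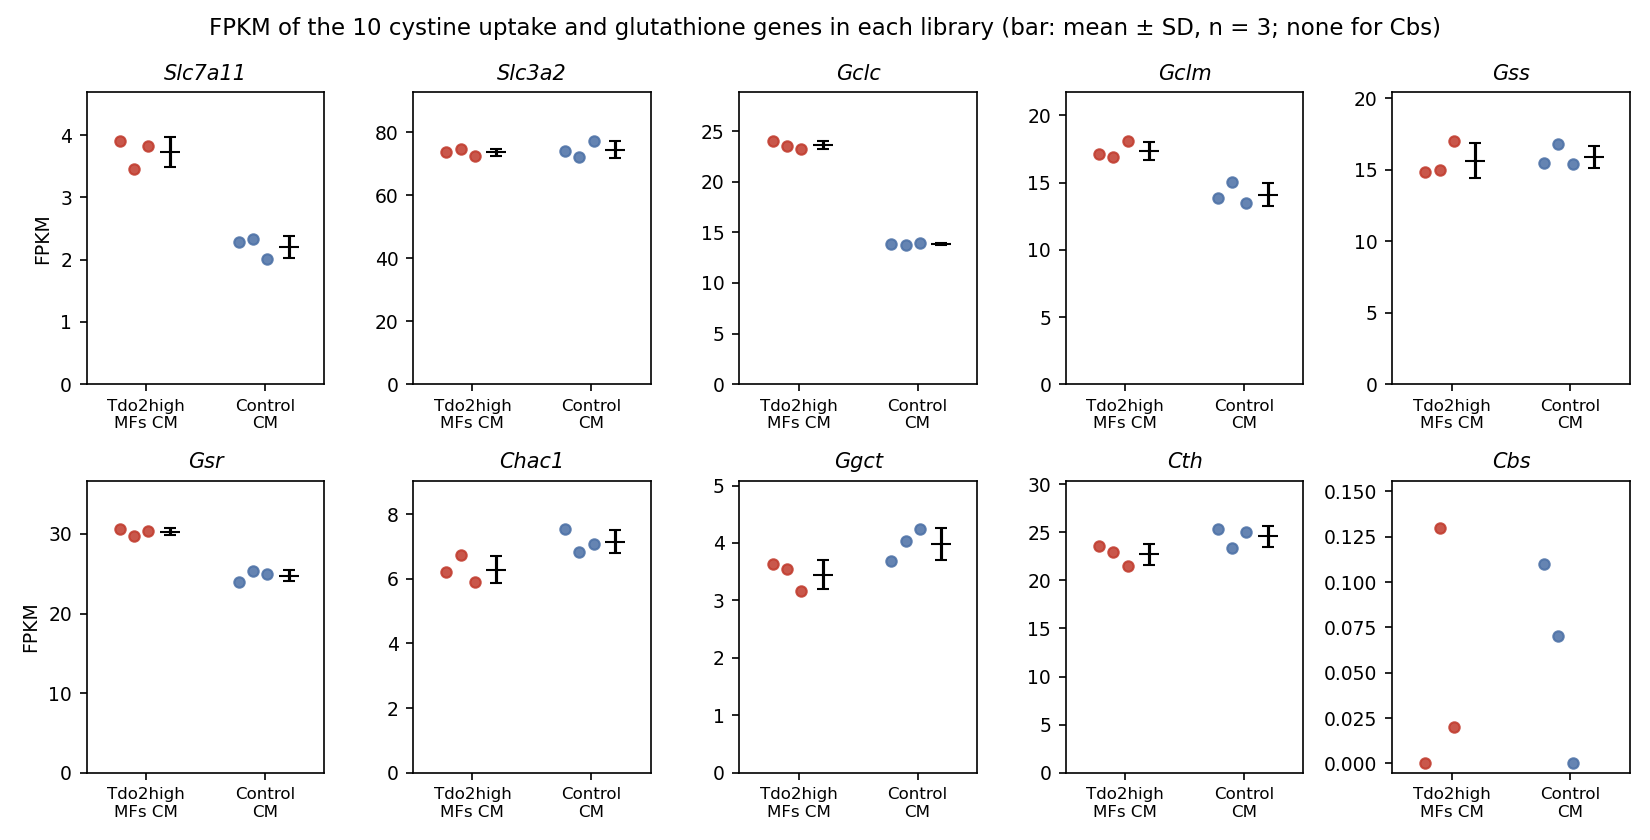
FPKM (vertical axes, each starting at or just under 0) of the 10 genes in the 3 Tdo2high MFs CM libraries (red) and the 3 Control CM libraries (blue), with the mean and SD of each group in black except for Cbs, which is listed at 0 in 1 library of each group. The groups are apart for Slc7a11, Gclc, Gclm and Gsr (higher with Tdo2high MFs CM) and for Chac1 and Ggct (lower), and Cbs does not exceed 0.13 FPKM.

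For cystine uptake, Slc7a11, the light chain that carries the cystine, had 3.91, 3.46 and 3.82 FPKM in the Tdo2high MFs CM libraries and 2.28, 2.33 and 2.01 FPKM in the Control CM libraries. All libraries with Tdo2high MFs CM were above all with Control CM, and the means stood at a ratio of 1.69. On the log2(FPKM + 1) scale the fold change, understated for a gene at this low level, was 0.56 ± 0.07 (SE, adjusted p = 0.00136 by limma), and with a pseudocount of 0.1 it was 0.73. Its partner Slc3a2, the heavy chain that brings Slc7a11 and several other light chains to the cell surface, had 73.7, 74.6 and 72.6 FPKM with Tdo2high MFs CM and 74.0, 72.0 and 77.3 FPKM with Control CM. The groups overlapped, with a log2 fold change of -0.02 (95% interval -0.09 to 0.06, adjusted p = 0.814 by limma). The light chain thus stood far below the heavy chain. Within each library the FPKM ratio of Slc7a11 to Slc3a2 was 0.0530, 0.0464 and 0.0527 with Tdo2high MFs CM and 0.0308, 0.0323 and 0.0260 with Control CM. On GRCm38 Slc3a2 spans chromosome 19 from 8706882 to 8723369.

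For glutathione synthesis, Gclc, the catalytic subunit of the ligase, had 24.1, 23.5 and 23.3 FPKM with Tdo2high MFs CM and 13.8, 13.8 and 14.0 FPKM with Control CM. The gap between the groups was many times the spread within them, with means of 23.6 ± 0.395 and 13.9 ± 0.0985 FPKM (SD, n = 3 each) at a ratio of 1.70. Its log2 fold change of 0.73 ± 0.03 (SE, adjusted p = 1.6e-06 by limma) was the largest of the 9 genes. Gclm, the modifier subunit that lowers feedback inhibition by glutathione, had 17.1, 16.9 and 18.1 FPKM with Tdo2high MFs CM and 13.8, 15.0 and 13.5 FPKM with Control CM. It rose 1.23-fold, again with no overlap (0.28 ± 0.05, adjusted p = 0.00805 by limma). Gss, the second enzyme of the route, had 14.8, 15.0 and 17.0 FPKM with Tdo2high MFs CM and 15.5, 16.8 and 15.4 FPKM with Control CM. Its highest library was Tdo2high MFs CM replicate 3, the groups overlapped, and the interval of its log2 fold change ran from -0.15 to 0.10 (adjusted p = 0.824 by limma). Gclm spans chromosome 3 from 122245487 to 122267215 and Gss chromosome 2 from 155563181 to 155592810.

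For recycling, Gsr had 30.6, 29.8 and 30.4 FPKM with Tdo2high MFs CM and 24.0, 25.4 and 25 FPKM with Control CM. Every library with Tdo2high MFs CM was above every library with Control CM. The 1.22-fold rise (log2 fold change 0.28 ± 0.03, adjusted p = 0.00124 by limma) was close in size to that of Gclm. Gsr spans chromosome 8 from 33653238 to 33698162.

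The cyclotransferases Chac1 and Ggct did not pass the test. Chac1, a cyclotransferase that cleaves glutathione in the cytosol and is a known ATF4 target, had 6.22, 6.72 and 5.91 FPKM with Tdo2high MFs CM and 7.53, 6.82 and 7.07 FPKM with Control CM. The groups did not overlap, though replicate 2 of Tdo2high MFs CM lay just under replicate 2 of Control CM (log2 fold change -0.16, 95% interval -0.29 to -0.03, adjusted p = 0.128 by limma). Ggct, which releases pyroglutamate from other gamma-glutamyl peptides, had 3.64, 3.54 and 3.16 FPKM with Tdo2high MFs CM and 3.68, 4.03 and 4.24 FPKM with Control CM. Here too the groups were apart by a small gap (log2 fold change -0.16, 95% interval -0.32 to -0.01, adjusted p = 0.179 by limma). Chac1 spans chromosome 2 from 119351242 to 119354326 and Ggct chromosome 6 from 54985095 to 54992960.

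The transsulfuration route makes cysteine from methionine through Cbs, which forms cystathionine, and Cth, which splits it to release cysteine. Cth had 23.6, 23.0 and 21.5 FPKM with Tdo2high MFs CM and 25.31, 23.36 and 25.03 FPKM with Control CM. The groups overlapped (log2 fold change -0.11, 95% interval -0.21 to -0.01, adjusted p = 0.165 by limma). Cbs was listed at 0, 0.13 and 0.02 FPKM with Tdo2high MFs CM and at 0.11, 0.07 and 0 FPKM with Control CM, so the first gene of the route was near 0 with either medium while the second was well expressed. No fold change is given for Cbs.

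**Figure D2:**
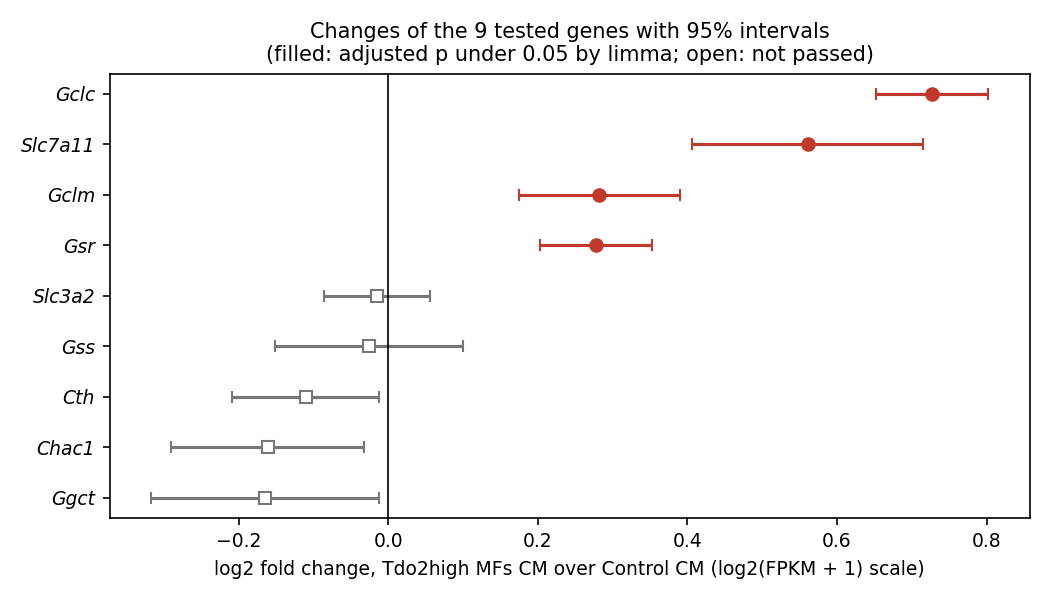
Log2 fold change of Tdo2high MFs CM over Control CM on the log2(FPKM + 1) scale (horizontal axis) for the 9 tested genes, with 95% intervals of the limma fit from 3 libraries per group. Gclc, Slc7a11, Gclm and Gsr (filled) passed the test, at 0.73, 0.56, 0.28 and 0.28, and the other 5 (open) lay between -0.16 and -0.02 without passing.

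In the order of levels, Slc3a2 stood first and Cbs last with either medium. With Tdo2high MFs CM the order was Slc3a2, Gsr, Gclc, Cth, Gclm, Gss, Chac1, Slc7a11, Ggct and Cbs. With Control CM it was Slc3a2, Gsr, Cth, Gss, Gclm, Gclc, Chac1, Ggct, Slc7a11 and Cbs. With Tdo2high MFs CM the neighbours Gclc and Cth, Gclm and Gss, and Slc7a11 and Ggct overlapped across libraries. With Control CM Gsr and Cth overlapped, as did Gclm and Gclc. Gclc thus moved to place 3 with Tdo2high MFs CM, against place 6 with Control CM.

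Ratios within a library show whether genes moved by different amounts and do not depend on how libraries are scaled. The FPKM ratio of Gclc to Gclm was 1.41, 1.39 and 1.28 with Tdo2high MFs CM and 1.0, 0.917 and 1.04 with Control CM. The catalytic subunit was thus above its partner in every library with Tdo2high MFs CM and about level with it in those with Control CM. The mean log2 ratio differed by 0.47 between the groups for Gclc over Gclm, 0.77 for Slc7a11 over Slc3a2, 0.795 for Gclc over Gss and 0.48 for Gclc over Gsr, and for these 4 ratios the groups did not overlap. With 3 libraries against 3, an exact two-sided permutation test cannot go below p = 0.1, the value each of the 4 gave (0.125 adjusted over the 5 ratios examined). The ratio of Chac1 to Ggct was 1.71, 1.90 and 1.87 with Tdo2high MFs CM and 2.05, 1.69 and 1.67 with Control CM. It overlapped, at a difference of 0.02 (exact permutation p = 0.8).

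**Figure D3:**
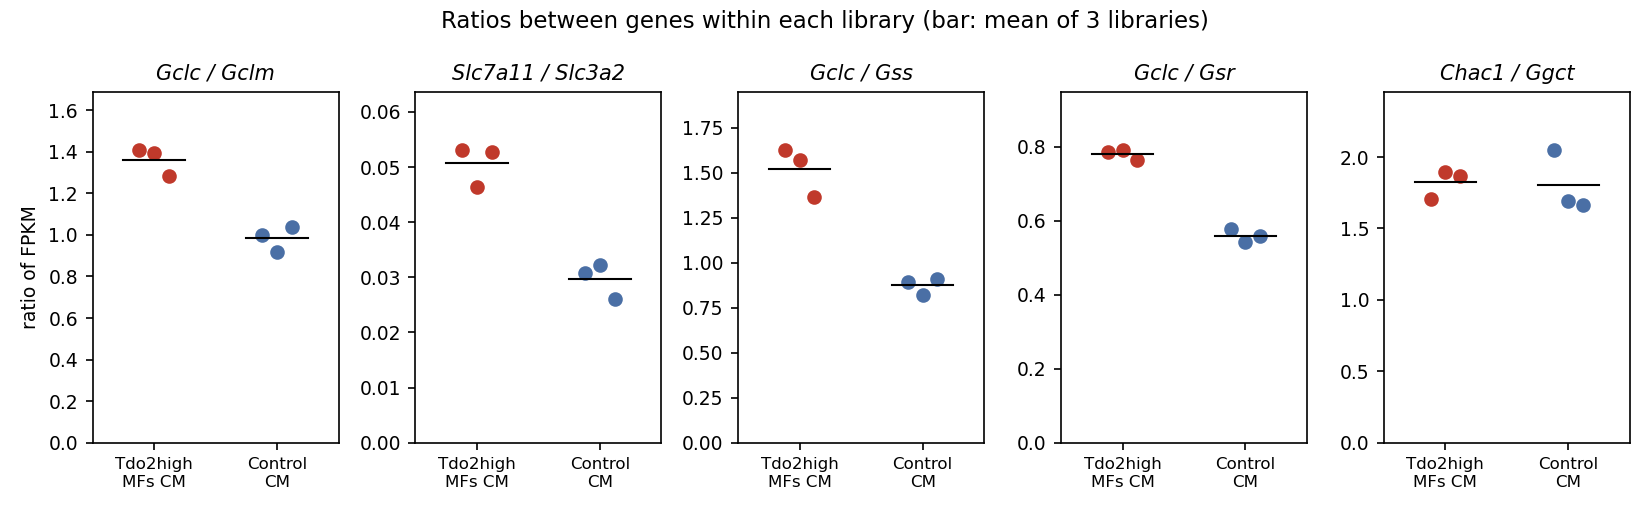
Ratio of FPKM between 2 genes within each library (vertical axes start at 0), for 3 Tdo2high MFs CM libraries (red) and 3 Control CM libraries (blue), with the mean of each group as a bar. Gclc over Gclm is 1.28 to 1.41 with Tdo2high MFs CM and 0.917 to 1.04 with Control CM, and only Chac1 over Ggct overlaps between the groups among the 5 ratios.

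Genes around the pathway were taken from 7 lists of neighbouring steps. Of 58 tested genes in these lists 7 rose and 5 fell by limma, where 3.35% and 4.06% of all tested genes did. The supply of glutamate, which is both a building block of glutathione and the ion that system xc- exports, had the most falls. Of its 7 tested genes 3 fell and 1 rose (median log2 fold change -0.10, against -0.01 over all tested genes). Glul, glutamine synthetase, which uses up glutamate, had 78.4, 79.2 and 78.7 FPKM with Tdo2high MFs CM and 67.5, 68.8 and 68.8 FPKM with Control CM (log2 fold change 0.20 ± 0.03, adjusted p = 0.00155 by limma). Among the genes that fell were Aldh18a1 (-0.23), which turns glutamate into a proline precursor, and Psat1 (-0.21), a serine synthesis transaminase that uses glutamate. Both passed in all 16 alternative settings.

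Among carriers of cystine, cysteine, glutamate and glutamine 1 of 8 tested genes rose and none fell; at an unadjusted p under 0.05 by limma 2 were higher and 2 lower, where 9.68% and 14.1% of all tested genes were higher and lower (median -0.05). The gene that rose was Slc1a4, a carrier of small neutral amino acids that include cysteine, at 13.3, 14.5 and 13.3 FPKM with Tdo2high MFs CM and 11.4, 11.2 and 10.8 FPKM with Control CM (0.27 ± 0.05, adjusted p = 0.00871 by limma). Every library with Tdo2high MFs CM was above those with Control CM. Cystine can also enter cells through the renal cystine transporter. The group means of its heavy chain Slc3a1 were 0.217 FPKM with Tdo2high MFs CM and 0.257 FPKM with Control CM, below the filter. From the same list of carriers, Slc7a9 was not found by symbol and Slc7a13 did not exceed 0.13 FPKM in any library. The cysteine and glutamate carrier Slc1a1 was near 0 as well, not exceeding 0.02 FPKM in any library.

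Of 11 tested genes that use glutathione as peroxidases, glutaredoxins or glyoxalases, 2 rose and 1 fell (median 0.03). At an unadjusted p under 0.05 by limma 5 were higher and 2 lower, where 9.68% and 14.1% of all tested genes were. Gpx4 had 376, 377 and 377 FPKM with Tdo2high MFs CM and 344, 370 and 343 FPKM with Control CM. The groups did not overlap, but Gpx4 did not pass (log2 fold change 0.10, adjusted p = 0.114 by limma). Esd, an esterase that hydrolyses formylglutathione, had 156, 150 and 157 FPKM with Tdo2high MFs CM and 120, 131 and 125 FPKM with Control CM (0.298 ± 0.04, adjusted p = 0.00124 by limma). Prdx6, a peroxiredoxin that takes its electrons from glutathione, rose (0.17), and Hagh, which frees glutathione from lactoylglutathione, fell (-0.20). The call of Prdx6 ended in 5 of 16 alternative settings, among them the fits without Tdo2high MFs CM replicate 2, Control CM replicate 1 or Control CM replicate 3. That of Hagh ended in 10 of 16, among them the fits without any 1 library except Tdo2high MFs CM replicate 3.

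Of 8 tested genes that move glutathione within or out of the cell 2 rose and none fell (median 0.07). At an unadjusted p under 0.05 by limma 3 were higher and 1 lower, where 9.68% and 14.1% of all tested genes were. Those that rose encode exporters of glutathione conjugates, namely Abcc4, with 6.32, 6.81 and 6.67 FPKM after Tdo2high MFs CM and 5.39, 5.19 and 5.03 FPKM after Control CM (0.29 ± 0.05, adjusted p = 0.00932 by limma), and Abcc1 (0.17). The groups did not overlap for either exporter. The call of Abcc1 ended in 3 of 16 alternatives, the fits without Tdo2high MFs CM replicate 1, Tdo2high MFs CM replicate 2 or Control CM replicate 2.

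Of 11 tested genes of cysteine and sulfide breakdown 1 rose and none fell (median 0.03). At an unadjusted p under 0.05 by limma 2 were higher and 2 lower, where 9.68% and 14.1% of all tested genes were. The gene that rose was Fmo1, a monooxygenase that forms taurine from hypotaurine, at 28.6, 30.0 and 32.4 FPKM with Tdo2high MFs CM and 26.2, 23.9 and 24.7 FPKM with Control CM (0.27 ± 0.05, adjusted p = 0.0103 by limma). Without a filter on low values Fmo1 no longer passed (adjusted p = 0.0552 by limma). Of 6 tested genes of glutathione breakdown and recycling none passed the adjusted limma test, and at an unadjusted p under 0.05 there was 1, Oplah, the hydrolase that turns pyroglutamate into glutamate (0.15, adjusted p = 0.1 by limma), where 9.68% of all tested genes were higher by that rule.

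**Figure D4:**
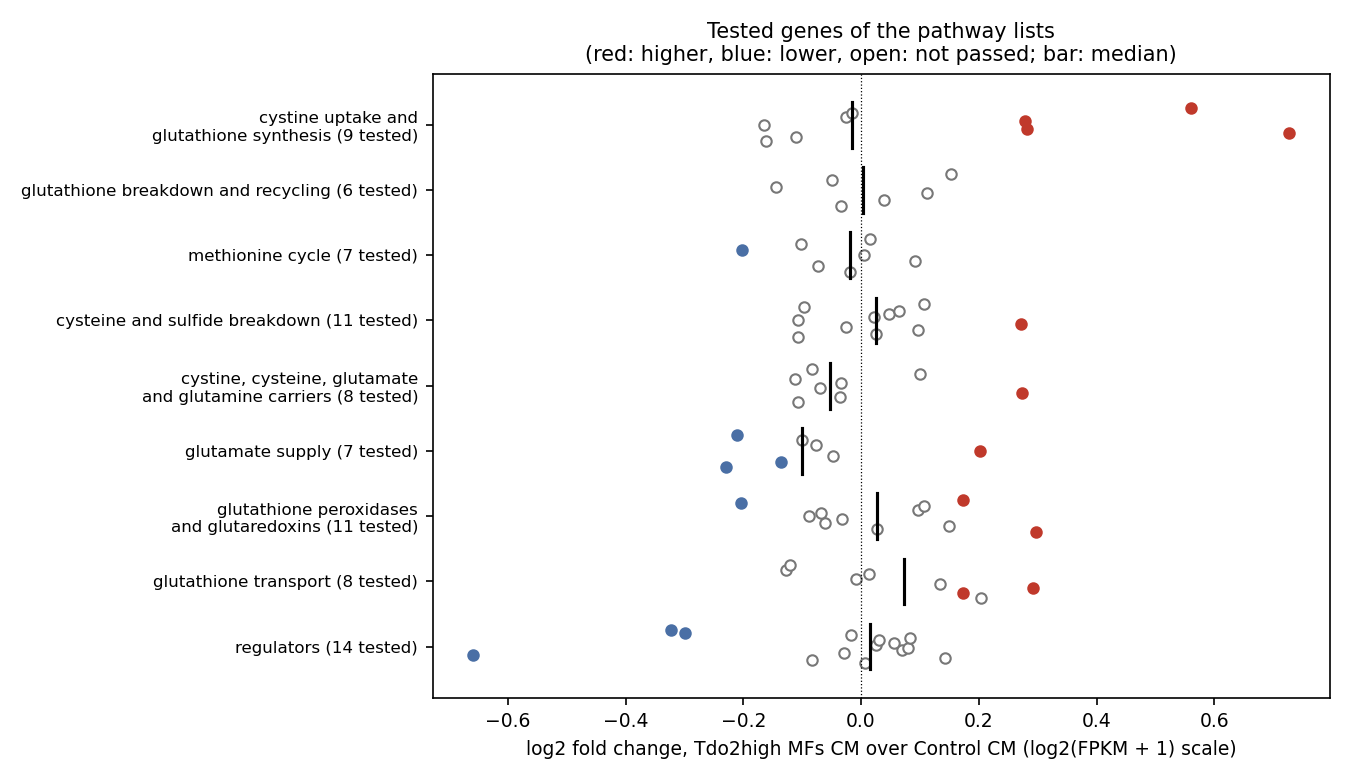
Log2 fold change of Tdo2high MFs CM over Control CM on the log2(FPKM + 1) scale (horizontal axis) for each tested gene of the 10 cystine and glutathione genes (top row), the 7 lists of neighbouring steps and the regulators, with the median of each list as a bar. Red points rose, blue points fell and open points did not pass. The top row holds 4 red points at 0.28 to 0.73, and the regulators hold 3 blue points at -0.66 to -0.298.

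Of 14 regulators of cystine uptake and glutathione synthesis, all tested, 3 fell and none rose by limma, while 3 were higher and 4 lower at an unadjusted p under 0.05, where 9.68% and 14.1% of all tested genes were. The median was 0.02. Nfe2l2, which encodes NRF2, had 80.43, 79.19 and 79.96 FPKM with Tdo2high MFs CM and 73.4, 78.9 and 74.0 FPKM with Control CM. The groups did not overlap, but Control CM replicate 2 was close to the libraries with Tdo2high MFs CM, and the gene did not pass (log2 fold change 0.08, 95% interval 0.01 to 0.15, adjusted p = 0.16 by limma) except without Control CM replicate 2 (0.0491). Keap1, the adaptor that marks NRF2 for degradation, stood at 0.08 (adjusted p = 0.129), and Bach1, a repressor at antioxidant response elements, at 0.14 (adjusted p = 0.0633 by limma). Bach1 passed by limma with quantile normalization (adjusted p = 0.0405) and with the median of ratios (0.0457). The small MAF partners of NRF2 did not pass, at 0.03 for Maff, 0.06 for Mafg and 0.03 for Mafk.

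On the ATF4 side, Atf4 itself had 89.6, 86.6 and 89.5 FPKM with Tdo2high MFs CM and 94.6, 92.4 and 94.5 FPKM with Control CM (-0.08, 95% interval -0.14 to -0.02, adjusted p = 0.1 by limma). The groups were apart, but the gene did not pass. Ddit3, a stress transcription factor, had 7.92, 6.56 and 5.68 FPKM with Tdo2high MFs CM and 11.1, 10.9 and 11.4 FPKM with Control CM, and fell (-0.66 ± 0.09, adjusted p = 0.00195 by limma). Trib3, a pseudokinase that feeds back on ATF4, had 23.3, 21.9 and 23.1 FPKM with Tdo2high MFs CM and 27.8, 28.1 and 28.7 FPKM with Control CM, and fell (-0.298 ± 0.03, adjusted p = 0.00105 by limma). Trp53, whose product has been reported to repress Slc7a11, was lower too (-0.32 ± 0.04, adjusted p = 0.00229 by limma). Atf3, another repressor reported for Slc7a11, stood at 0.0060, the eIF2-alpha kinases Eif2ak3 and Eif2ak4 at -0.03 and 0.07, and Otub1, a deubiquitinase reported to stabilise the SLC7A11 protein in human cells, at -0.02, and none of these passed. The direction of Atf3 turned on the TPM scale (-0.0032). mRNA levels carry no measure of NRF2 or ATF4 protein.

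**Figure D5:**
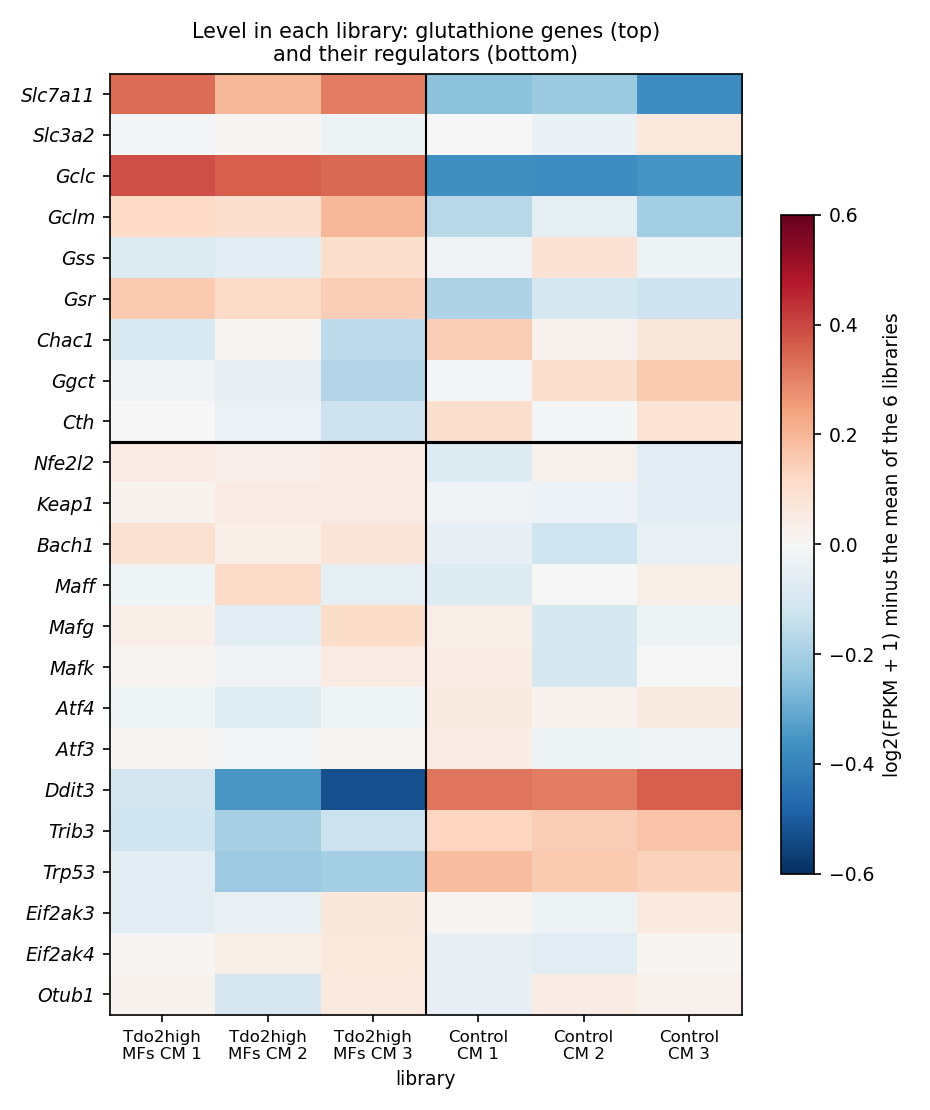
Level of each tested gene in each library as log2(FPKM + 1) minus the mean of the 6 libraries (colour), for the cystine and glutathione genes (above the line) and the regulators (below it), with 3 Tdo2high MFs CM libraries on the left and 3 Control CM libraries on the right. Slc7a11, Gclc, Gclm and Gsr are red in every Tdo2high MFs CM library, and Ddit3, Trib3 and Trp53 are blue there.

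The genes whose profile over the 6 libraries lay closest to that of Gclc were found by the root mean square difference of mean-centred log2(FPKM + 1), as a description. In order they were Srxn1, at a difference of 0.025, Aox1, Pgd, Mgst1 and Selp, at 0.049. Srxn1 encodes sulfiredoxin, which repairs overoxidised peroxiredoxins. It had 41.5, 42.4 and 41.1 FPKM with Tdo2high MFs CM and 25.4, 24.4 and 24.9 FPKM with Control CM. Pgd encodes an NADPH-producing enzyme of the pentose phosphate pathway, Mgst1 a microsomal glutathione transferase, Aox1 an aldehyde oxidase and Selp the adhesion molecule P-selectin. The profiles nearest to Slc7a11 were less close, at 0.067 to 0.072, and belonged to Plppr3, Gstm2, Mgp, Id2 and Ccn5. Gstm2, a glutathione transferase, had 150, 146 and 150 FPKM with Tdo2high MFs CM and 103, 111 and 105 FPKM with Control CM.

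The libraries were alike in overall terms. FPKM summed to 444217 to 445209 with Tdo2high MFs CM and 438603 to 447415 with Control CM, and read depth is unknown. Of the markers fixed for the labelled cells, the keratins Krt8 and Krt18 averaged 277 and 378 FPKM with Tdo2high MFs CM and 272 and 356 FPKM with Control CM. Vim was the highest of that list, at means of 1224 FPKM with Tdo2high MFs CM and 1274 FPKM with Control CM. Epcam and Cdh1, which define epithelial cells, did not exceed 0.11 FPKM, and the keratins Krt14 and Krt5 did not exceed 0.07 FPKM. Krt19 was not found by symbol. Of the 8 markers fixed for the labelled cells only 3 passed the filter. Most of that list was thus absent or below 1 FPKM, and the identity of the cells rests on the labels. Of 20 markers of fibroblasts, myeloid cells, lymphocytes and endothelial cells in the table, 13 did not reach 1 FPKM in any library. Fibroblast markers summed to 83.4 to 86.0 FPKM with Tdo2high MFs CM and 84.1 to 86.6 FPKM with Control CM, although 1 of the 4 tested rose (Pdgfra, 0.17) and 2 fell (Dcn, -0.48, and Fap, -0.31). The call of Fap ended in 6 of 16 alternatives, among them the fits without Tdo2high MFs CM replicate 2, Tdo2high MFs CM replicate 3, Control CM replicate 1 or Control CM replicate 3. Levels within the fibroblast list were uneven: Pdgfra, Pdgfrb, Dcn and Fap averaged 47.3, 23.1, 10.9 and 3.04 FPKM with Tdo2high MFs CM and 41.9, 23.6, 15.5 and 3.997 FPKM with Control CM. Col1a1, Col1a2 and Lum did not exceed 0.12 FPKM in any library, and Col3a1, Postn and Thy1 were not found by symbol among the 16426 genes. Myeloid markers summed to 7.85 to 9.82 FPKM with Tdo2high MFs CM and 6.11 to 8.33 FPKM with Control CM. Most of this was Cd14, at means of 8.82 FPKM with Tdo2high MFs CM and 6.997 FPKM with Control CM. Lyz2, Csf1r, Itgam and Laptm5 did not exceed 0.1 FPKM in any library. Endothelial markers summed to 61.0 to 62.0 FPKM with Tdo2high MFs CM and 63.4 to 64.0 FPKM with Control CM. Eng averaged 52.9 and 55.2 FPKM and Egfl7 8.40 and 8.47 FPKM, in the same order of groups. Pecam1, Cdh5 and Vwf did not exceed 0.11 FPKM in any library. The part of the fibroblast, myeloid and endothelial markers in the changes of the glutathione genes was not tested.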

How the data were processed

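Polyadenylated RNA of 6 samples was copied with random hexamers and sequenced at BGI, per the labels' protocols. The authors deposited FPKM for 16426 genes, per the file headers, rounded to 2 decimals; the build was GRCm38, per the submitters' processing notes, and for the aligner and quantifier the sources used here name none. Among 4541 low values (0.1 to 0.6 FPKM) values lay on average 0.256 from whole multiples of their gene's lowest value, so whole reads were not recovered, depth is unknown and no count model was used. FPKM already corrects for length and library size, so a change in abundant genes shifts all others.

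Titles gave the groups, and column names matched them. Genes at 1 FPKM or more in 3 or more of 6 libraries (10804; 5622 left out) were tested as log2(FPKM + 1) with limma 3.58.1 in R 4.3.3 (two-sided, intensity trend, replicate number not in the model); p-values were adjusted by Benjamini-Hochberg over these genes and called under 0.05. Ratios were compared by exact permutation. Alternatives changed the pseudocount, filter, scaling or variance model, added a replicate block or left out 1 library. Same-numbered samples did not deviate together.

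The genes, lists and tests were chosen with earlier results of these data known. Named were all 10 genes, called list members (up to 4 a list), all tested regulators and the 5 profiles nearest to Gclc and to Slc7a11; markers and members that did not pass, where named, were chosen after their values were seen. A total of 26 symbols that had turned into dates were replaced by gene number. Gene positions and promoter sequences are from RefSeq (GRCm38.p6), which held 16371 of the gene numbers. Some members of the neighbouring lists are counted in the totals but not reported here. Figures were drawn with matplotlib 3.10.9.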

Additional observations from a re-analysis of the deposited data

How the results depend on the processing

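Gclc, Slc7a11, Gclm and Gsr passed in all 16 alternatives, with log2 fold changes of 0.71 to 0.76, 0.52 to 0.73, 0.25 to 0.33 and 0.25 to 0.295 and adjusted p of at most 9.31e-05, 0.0151, 0.0413 and 0.00865 by limma. Chac1, Ggct and Cth stayed negative and did not pass in any of them, with adjusted p of at least 0.108, 0.15 and 0.0994. The count of the 9 genes was 4 higher and 0 lower throughout, also without any 1 library (4 to 4 and 0 to 0). Values near 0 turned when 1 library was left out, with ranges of -0.039 to 0.012 for Slc3a2, -0.086 to 0.012 for Gss, -0.026 to 0.058 for Maff, -0.010 to 0.062 for Mafk, -0.0078 to 0.029 for Atf3 and -0.050 to 0.031 for Otub1. On the TPM scale Atf3 was at -0.0032. Over all genes, no filter on low values gave 199 higher and 195 lower, with more genes tested. Leaving out the intensity trend gave 248 higher and 277 lower, and the cause of this was not tested. Without 1 library, with fewer samples, the counts were 209 to 293 higher and 186 to 266 lower, against 362 and 439, and were lowest without Tdo2high MFs CM replicate 2. TPM scaling gave 321 and 507, and the median of ratios 455 and 367. Of the 12 called genes in the neighbouring lists, 6 passed in every alternative.

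The labels do not say whether the title numbers mark a shared batch. Same-numbered samples did not deviate together (r of -0.02, -0.03 and 0.02 across genes). The replicate block gave 296 genes higher and 326 lower and kept the count of 4 and 0 among the glutathione genes; the call of Hagh ended under it (adjusted p = 0.0764 by limma). Among the 10 glutathione genes, Cbs lies nearest to the rounding step of the deposited values.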
